A study of Arabidopsis thaliana with 5 samples.

Results

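The nuclear genes for the protein subunits of the photosystems and their light-harvesting antennae were followed in sorted leaf epidermal cells of Arabidopsis thaliana. The group is a list of gene identifiers, whose rule uses no measured value although it was drawn up with earlier results of these data known. It holds 42 of the 24200 genes in the deposited gene table: 9 genes for the trimeric antenna of photosystem II (LHCII), 5 for its minor antenna, 6 for the antenna of photosystem I (LHCI), 12 for the photosystem I core and 10 for photosystem II proteins. All 42 were found in the table and in the TAIR10.1 annotation, and all passed the filter on low values. RNA came from seedlings 9 days post germination, with 3 libraries of wild type (WT) and 2 of hdl. The latter is mutant for HDL (HOMEODOMAIN-LIKE), and the growth protocol gives the allele as hdl-1. Plants of both genotypes carried AtML1pro:RCI2A-mCherry, in which the ATML1 promoter of the outer cell layer drives a red membrane marker, and were grown on MS medium in long days after 2 days of cold. Protoplasts were made from the seedlings, about 20000 mCherry-positive cells were sorted per sample, and 10 to 20 ng of RNA went into each library. Separate plantings are not stated for the replicates. The p-values therefore reflect no more than the spread among these 5 samples, part of which may be technical. The level of HDL was not analysed here.

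Photosystem II splits water and photosystem I reduces ferredoxin. Each core is fed by chlorophyll-binding antenna proteins of the LHC family, LHCB for photosystem II and LHCA for photosystem I, which are encoded in the nucleus and imported into the chloroplast. Most of these transcripts are abundant in green mesophyll cells. Pavement cells of the epidermis hold small chloroplasts and guard cells hold chloroplasts too, so some of these transcripts are known from the epidermis.

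The libraries held 15418154 to 22838239 recovered gene reads. Of 20391 genes tested with limma, 1674 (8.21%) were called higher in hdl and 917 (4.5%) lower at an adjusted p under 0.05. The higher calls numbered 791, 3574 and 358 without WT replicates 1, 2 and 3 in turn, and 0 and 528 without hdl replicates 1 and 2, and the lower calls 189, 2295 and 69 without WT replicates 1, 2 and 3 in turn, and 0 and 1119 without hdl replicates 1 and 2. Normalized counts, the reads divided by the authors' scaling factor for each library, summed to 19046245 to 20079270 in WT and to 24387425 and 24709399 in hdl, so changes were also computed with libraries scaled to equal totals. That scaling moved the median log2 change of all genes from -0.05 to -0.37. A cell sort is a bulk sample, in which fewer cells of a type and less RNA per cell cannot be told apart. Epidermis, mesophyll, vascular and guard cell markers were detected in every library. WT replicate 2 stood apart from the other WT libraries for some of the 42 genes, and changes without it are given for LHCB1.4, LHCB4.3, LHCA6 and PSBS.

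By limma, 0 of the 42 genes were called higher and 0 lower, where 12.7% of all tested genes were called. At an unadjusted p under 0.05 there were 15 higher and 1 lower. The share of all genes under that threshold was not counted, so no excess can be read from these numbers. The lowest adjusted p was 0.0527, for LHCA5. Log2 changes of hdl against WT lay between -1.64 for LHCB1.4 and 1.29 for LHCA6, with a median of 0.33 and quartiles of 0.18 and 0.52, beside the median of -0.05 over all genes. They were positive for 38 genes and negative for 4, and 21 and 21 with libraries scaled to equal totals, where the median was 0.00. Both hdl libraries lay above all WT libraries for 30 genes (71.4%) and below them for LHCB1.2 and LHCB1.4, against 26.7% and 26.9% of all tested genes. For the other 10 genes the groups overlapped. By role, the median log2 change was 0.16 for the LHCII trimer, 0.26 for the minor antenna, 0.26 for LHCI, 0.33 for the photosystem I core, 0.41 for the oxygen-evolving proteins and 0.55 for the small photosystem II subunits, and PSBS was at 1.22.

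The tests differed in how many of these genes they called. DESeq2 on the recovered reads called 12 higher (28.6%) and 0 lower, where it called 23.4% of all genes, 12.8% higher and 10.6% lower. The 12 were LHCB2.1, LHCB2.2, LHCB4.3, LHCA5, LHCA6, PSAD1, PSAL, PSBQ1, PSBR, PSBS, PSBX and PSBY. edgeR's quasi-likelihood test called 1 higher, PSBR, and 0 lower, where it called 12% of all genes, 7.97% higher and 4.08% lower. Without WT replicate 2, limma called 19 higher (45.2%) and 2 lower (4.76%), where it called 29.2% of the 20108 genes then tested, 17.8% higher and 11.4% lower. Without any 1 of the other libraries it called 0. With libraries scaled to equal totals it called 0 higher and 1 lower, LHCB1.2, where it called 4.87% of all genes higher and 12.5% lower. With a pseudocount of 10 it called 2 higher, LHCB4.3 and LHCA5, where it called 14.3% of all genes, 9.07% higher. With a filter at 50 normalized counts it called PSBR, where it called 15.7% of 17467 genes, 10.1% higher. At an adjusted p under 0.10 there were 8 higher calls, where it called 22.8% of all genes, 12.9% higher.

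**Figure D1:**
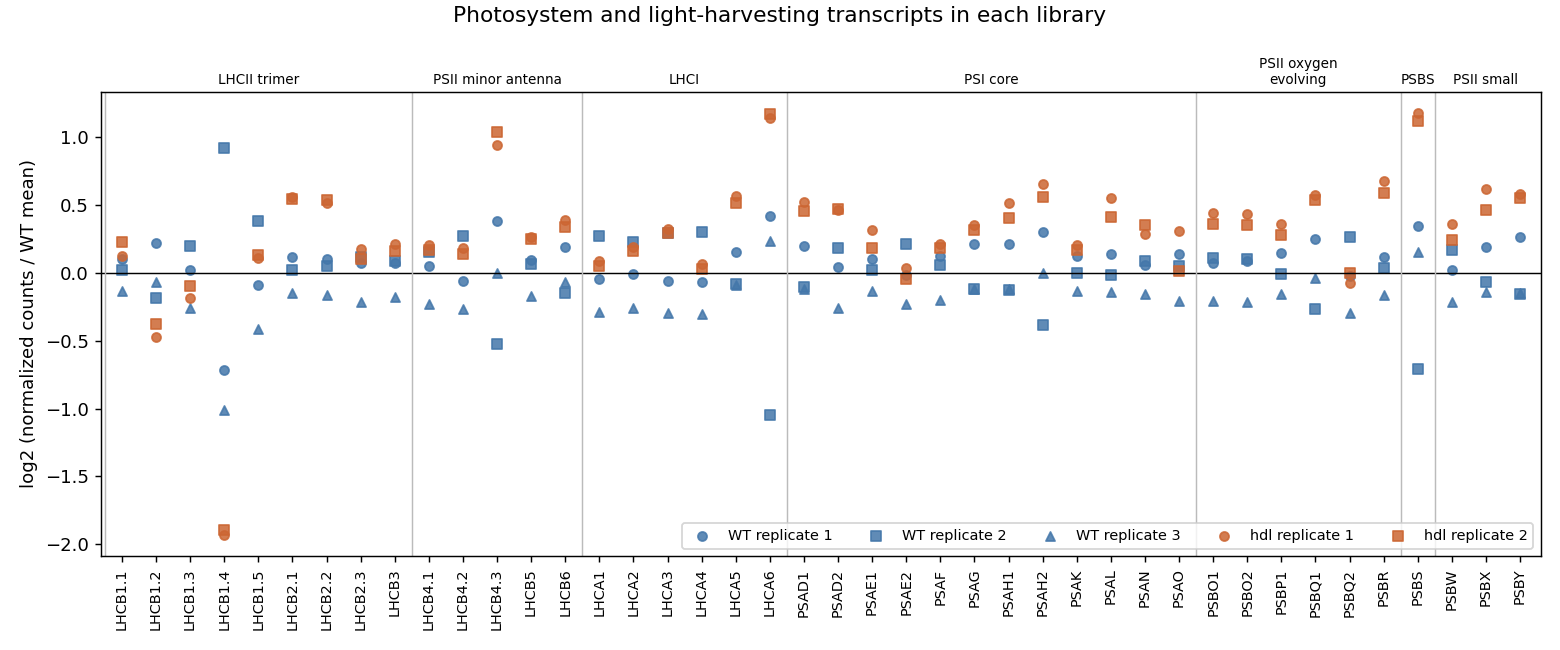
Level of each of the 42 genes in each library relative to its WT mean, as log2 of the ratio of normalized counts, grouped by role, with WT libraries in blue and hdl libraries in orange and 1 symbol per replicate. Most orange points lie above the blue ones, both hdl points of LHCB1.4 lie lowest, and WT replicate 2 (squares) stands apart from the other WT libraries for LHCB1.4, LHCB4.3, LHCA6 and PSBS.

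**Figure D2:**
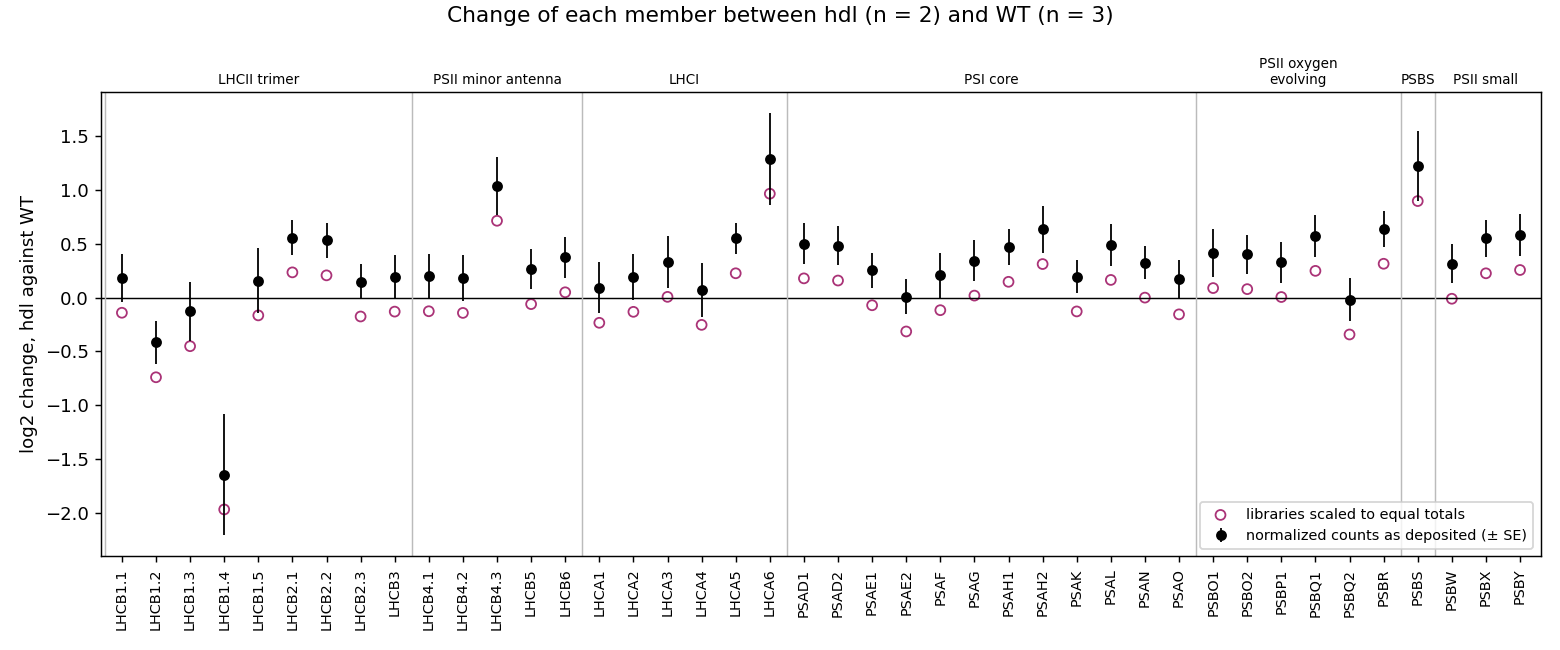
Log2 change of each gene in hdl against WT from limma, as filled points with bars of 1 SE, and with libraries scaled to equal totals, as open circles without bars. Most filled points lie between 0 and 0.64, LHCB4.3, LHCA6 and PSBS lie above 1, and LHCB1.4 is lowest at -1.64. Each open circle lies lower than its filled point.

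The LHCII trimer is built from LHCB1, LHCB2 and LHCB3 proteins, and LHCB1 has 5 gene copies. The copies lie in 2 clusters. LHCB1.1 (AT1G29920, chromosome 1, 10474656 to 10475969, minus strand), LHCB1.2 (AT1G29910, chromosome 1, 10472280 to 10473502, minus strand) and LHCB1.3 (AT1G29930, chromosome 1, 10477885 to 10479114, plus strand) are neighbours, as are LHCB1.4 (AT2G34430, chromosome 2, 14524607 to 14525918, plus strand) and LHCB1.5 (AT2G34420, chromosome 2, 14522524 to 14523568, minus strand), which stand head to head with 1038 bases between them. Coding sequences within the first cluster were 95.6 to 96.4% identical, and those of LHCB1.4 and LHCB1.5 were 91.4% identical, gaps counted. The longest stretch that the LHCB1.4 and LHCB1.5 transcripts share was 122 bases, at coding bases 277 to 398 of LHCB1.4 and 274 to 395 of LHCB1.5. It is shown because a read that falls wholly inside it cannot be assigned to either copy (RefSeq, TAIR10.1, chr2:14525094-14525215, plus strand, for LHCB1.4 and chr2:14523119-14523240, minus strand, for LHCB1.5). No letter is in capitals in this stretch.
LHCB1.4 and LHCB1.5 shared stretch: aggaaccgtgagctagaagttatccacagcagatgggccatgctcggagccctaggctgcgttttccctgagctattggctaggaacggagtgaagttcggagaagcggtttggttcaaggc

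LHCB1.3 was the most abundant of the 42 genes, with 198465, 224505 and 163704 normalized counts in WT replicates 1 to 3 and 172277 and 182894 in hdl replicates 1 and 2. The groups overlapped, and the log2 change was -0.13 ± 0.27 (SE, adjusted p = 0.776). LHCB1.4 had 30508, 95243 and 24864 normalized counts in WT replicates 1 to 3 and 13172 and 13526 in hdl replicates 1 and 2. WT replicate 2 was 3.44 times the mean of the other WT libraries, and both hdl libraries were below all WT libraries. Its log2 change was -1.64 ± 0.56 (SE, adjusted p = 0.105), and -1.04 without WT replicate 2, where it was called lower. LHCB1.2 had 59963, 45316 and 48990.3 normalized counts in WT replicates 1 to 3 and 36984 and 39603 in hdl replicates 1 and 2, below WT in both hdl libraries, with a log2 change of -0.42 ± 0.20 (SE, adjusted p = 0.210). It was called lower with libraries scaled to equal totals, at -0.74, and without WT replicate 2, at -0.50. LHCB1.1, at 0.18, and LHCB1.5, at 0.16, had changes smaller than their SE and a negative sign at equal totals.

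Shares within the LHCB1 family do not depend on the scaling of a library. LHCB1.4 made up 5.81%, 14.8% and 5.76% of the family sum in WT replicates 1 to 3 and 2.75% and 2.69% in hdl replicates 1 and 2. LHCB1.5, its neighbour, took 23.8%, 26.9% and 23.1% in WT and 29.8% and 28.9% in hdl. Thus hdl lay below WT for the first and above WT for the second, also when WT replicate 2 is set aside. LHCB1.1 shares were above WT in hdl as well, at 23.7 and 24.2% against 21.3%, 16.4% and 21.9% in WT replicates 1 to 3. The shares of LHCB1.2 and LHCB1.3 overlapped. The LHCB1 family as a whole had 525496, 643451 and 431497 normalized counts in WT and 478619 and 503017 in hdl. The groups overlapped, with a log2 change of -0.10 ± 0.38 (SE, adjusted p = 0.875). How reads shared by copies were counted is not given in the sources used here, and their part in the shares and sums was not tested.

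LHCB2, like LHCB1, is phosphorylated when antenna trimers move between the photosystems. LHCB2.1 (AT2G05100, chromosome 2, 1822990 to 1824480, minus strand) had 25192, 23629 and 21003 normalized counts in WT replicates 1 to 3 and 34267 and 34019 in hdl replicates 1 and 2. Both hdl libraries were above all WT libraries, and the log2 change was 0.56 ± 0.17 (SE, adjusted p = 0.0756). LHCB2.2, 92.9% identical to LHCB2.1 over aligned coding bases and with a shared transcript stretch of 137 bases, had a change of 0.53 ± 0.16 (SE, adjusted p = 0.0812). LHCB2.3, the more distant copy, overlapped between groups with a change of 0.15 ± 0.16 (SE, adjusted p = 0.567), negative at equal totals. Its share of the LHCB2 sum was 24.4%, 26.0% and 24.1% in WT and 20.4% and 19.6% in hdl, below WT in both hdl libraries. The sum of the 3 copies had a log2 change of 0.46 ± 0.20 (SE, adjusted p = 0.174). LHCB3, a single gene for a trimer subunit, had a change of 0.19 ± 0.20 (SE, adjusted p = 0.543), and this sign turned at equal totals.

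**Figure D3:**
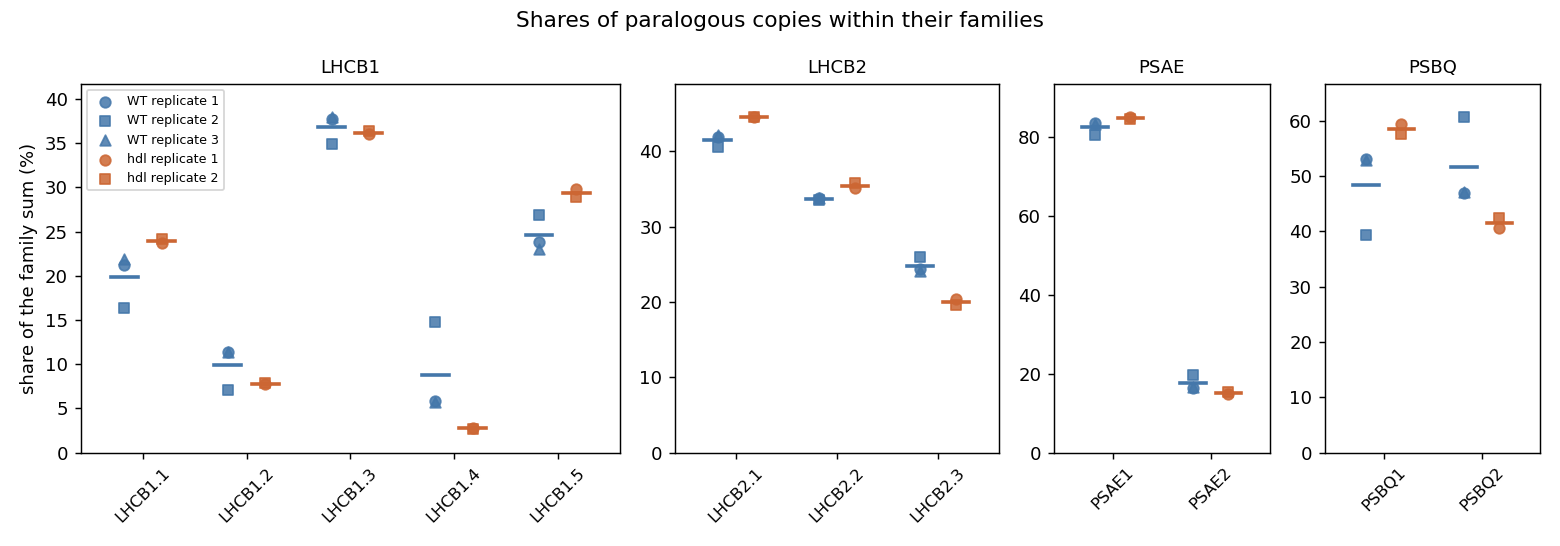
Share of each copy in the summed normalized counts of its family, in percent, for each library, with panels for LHCB1, LHCB2, PSAE and PSBQ and short lines at the group means. LHCB1.4 lies at 14.8% in WT replicate 2 and 5.76 to 5.81% in the other WT libraries and at 2.69 and 2.75% in hdl, and LHCB2.3 and PSAE2 have lower shares in both hdl libraries than in any WT library.

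Promoters are shown for the head-to-head pair and for the LHCB2 copies, whose changes were unlike, from 250 bases before to 50 bases after the annotated start (RefSeq, TAIR10.1, on the strand of the gene). Capitals mark matches, read on either strand, to CACGTG (the G-box core bound by bZIP and bHLH factors such as HY5), GATAAG (the I-box of light-regulated promoters) and CCAATC (an element common in genes that GLK factors act on). These 3 motifs do not contain each other. LHCB1.4 and LHCB1.5 had opposite signs, except at equal totals, with the replicate block and without WT replicate 3, where both were negative, and LHCB2.1 and LHCB2.2 had larger changes than LHCB2.3. Differences between copies were not tested.
LHCB1.4, chr2:14524357-14524656, plus strand: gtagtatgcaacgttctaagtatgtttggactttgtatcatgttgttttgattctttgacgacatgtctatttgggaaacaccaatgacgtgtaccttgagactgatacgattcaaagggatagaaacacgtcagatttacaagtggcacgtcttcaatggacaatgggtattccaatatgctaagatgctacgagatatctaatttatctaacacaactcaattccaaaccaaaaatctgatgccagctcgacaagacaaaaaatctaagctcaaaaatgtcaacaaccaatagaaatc
LHCB1.5, chr2:14523519-14523818, minus strand: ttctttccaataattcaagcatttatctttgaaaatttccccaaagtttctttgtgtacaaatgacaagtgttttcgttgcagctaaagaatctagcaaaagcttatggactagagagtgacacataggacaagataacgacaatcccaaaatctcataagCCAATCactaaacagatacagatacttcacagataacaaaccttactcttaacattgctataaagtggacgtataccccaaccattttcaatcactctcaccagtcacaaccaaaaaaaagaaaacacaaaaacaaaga
LHCB2.1, chr2:1824431-1824730, minus strand: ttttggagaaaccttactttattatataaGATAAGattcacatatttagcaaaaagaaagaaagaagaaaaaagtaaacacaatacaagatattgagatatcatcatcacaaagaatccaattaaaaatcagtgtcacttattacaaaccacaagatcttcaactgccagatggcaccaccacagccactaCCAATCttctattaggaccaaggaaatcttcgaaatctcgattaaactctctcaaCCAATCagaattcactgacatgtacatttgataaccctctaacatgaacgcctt
LHCB2.2, chr2:1800423-1800722, minus strand: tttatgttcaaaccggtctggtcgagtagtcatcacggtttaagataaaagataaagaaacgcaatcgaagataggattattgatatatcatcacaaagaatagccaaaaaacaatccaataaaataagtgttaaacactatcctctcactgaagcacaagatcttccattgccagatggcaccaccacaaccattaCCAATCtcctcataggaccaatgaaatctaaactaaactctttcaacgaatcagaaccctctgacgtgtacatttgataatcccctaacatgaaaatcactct
LHCB2.3, chr3:10255656-10255955, plus strand: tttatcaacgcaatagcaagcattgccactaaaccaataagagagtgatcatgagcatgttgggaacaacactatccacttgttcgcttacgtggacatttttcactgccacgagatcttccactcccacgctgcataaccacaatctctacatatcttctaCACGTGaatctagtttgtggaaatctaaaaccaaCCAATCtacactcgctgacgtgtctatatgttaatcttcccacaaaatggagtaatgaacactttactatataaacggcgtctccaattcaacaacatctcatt

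In LHCB1.4 none of the 3 motifs was found in this window. The LHCB1.5 window holds CCAATC at position -89 from the start, and the LHCB1.3 window holds it at position -91, whereas the windows of LHCB1.1 and LHCB1.2 have no match. All 3 LHCB2 windows hold CCAATC, LHCB2.1 with 2 matches and also GATAAG, and LHCB2.3 also CACGTG. Across the 42 genes, CACGTG was in 14 windows (33.3%), GATAAG in 17 (40.5%) and CCAATC in 15 (35.7%). The shares over the 27443 windows of the same length were 7.68%, 14.6% and 12.3%. Those windows are of nuclear protein-coding genes, expressed here or not, and were not matched to the 42 genes by level. The genes with the highest log2 changes, LHCA6, PSBS and LHCB4.3, had none of the 3 motifs in their windows, like LHCB1.4 with the lowest. Windows without a match were also those of LHCB3, LHCA2, LHCA5, PSAG, PSAN, PSBP1 and PSBX. A relation between matches and changes was not tested. A match is a description of letters only.

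The minor antenna proteins CP29 (LHCB4), CP26 (LHCB5) and CP24 (LHCB6) connect LHCII trimers to the photosystem II core. LHCB4.1 (AT5G01530, chromosome 5, 208866 to 210548, plus strand), the most abundant of them, had 60654, 65349 and 49943 normalized counts in WT replicates 1 to 3 and 67671 and 65888 in hdl replicates 1 and 2. Both hdl libraries were above all WT libraries by a narrow margin, and the log2 change was 0.20 ± 0.21 (SE, adjusted p = 0.548). LHCB4.2 overlapped between groups at 30442, 38234 and 26299 in WT and 36040.0 and 34889 in hdl, with a change of 0.18 ± 0.21 (SE, adjusted p = 0.584). Both signs turned at equal totals. LHCB4.3 (AT2G40100, chromosome 2, 16745628 to 16747424, plus strand), a divergent copy of CP29, was the least abundant of the 42 genes per length of transcript, with 1279, 684 and 985 normalized counts in WT replicates 1 to 3 and 1889 and 2016 in hdl replicates 1 and 2. WT replicate 2 was lowest and both hdl libraries were highest, with a log2 change of 1.04 ± 0.27 (SE, adjusted p = 0.0537), and 0.80 without WT replicate 2, where it was called higher. Its share of the LHCB4 sum was 1.38%, 0.656% and 1.28% in WT replicates 1 to 3 and 1.79% and 1.96% in hdl replicates 1 and 2. LHCB5 and LHCB6 had changes of 0.26 and 0.37, and LHCB5 was at -0.06 at equal totals.

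The photosystem I antenna consists of LHCA1 to LHCA4, while LHCA5 and LHCA6 are scarce relatives that link photosystem I to the chloroplast NADH dehydrogenase-like complex. LHCA4 (AT3G47470, chromosome 3, 17493343 to 17495033, minus strand) was the most abundant, with 72934, 94264 and 61792 normalized counts in WT replicates 1 to 3 and 79819 and 78022 in hdl replicates 1 and 2. The groups overlapped and the log2 change was 0.07 ± 0.25 (SE, adjusted p = 0.868), negative at equal totals. LHCA1, LHCA2 and LHCA3 had changes of 0.09, 0.19 and 0.33, of which the first pair turned negative at equal totals. LHCA5 (AT1G45474, chromosome 1, 17179250 to 17180806, plus strand) had 1892, 1609 and 1599.5 normalized counts in WT replicates 1 to 3 and 2524 and 2435 in hdl replicates 1 and 2. The groups did not overlap, and the change was 0.55 ± 0.14 (SE, adjusted p = 0.0527). LHCA6 (AT1G19150, chromosome 1, 6612630 to 6613972, plus strand) had 1781, 644 and 1561 normalized counts in WT replicates 1 to 3 and 2931 and 2996 in hdl replicates 1 and 2. WT replicate 2 was at 0.386 times the mean of the other WT libraries, the lowest such ratio of the 42 genes, and both hdl libraries were above all WT libraries. The change of LHCA6 was 1.29 ± 0.43 (SE, adjusted p = 0.0995), the largest of the 42, and 0.83 without WT replicate 2, where LHCA5 and LHCA6 were both called higher. LHCA5 overlaps a gene on the opposite strand.

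In the photosystem I core, PSAF docks plastocyanin, PSAD and PSAE form the ferredoxin side, and PSAH, PSAL and PSAO form the side where LHCII binds. PSAF (AT1G31330, chromosome 1, 11214676 to 11216141, minus strand) was the most abundant, with 74836, 71518 and 59667 normalized counts in WT replicates 1 to 3 and 79826 and 77897 in hdl replicates 1 and 2. Both hdl libraries were above all WT libraries, with a change of 0.21 ± 0.21 (SE, adjusted p = 0.526), negative at equal totals. PSAH2 (AT1G52230, chromosome 1, 19454798 to 19455668, plus strand) had 9933, 6194 and 8059 normalized counts in WT replicates 1 to 3 and 12677 and 11901 in hdl replicates 1 and 2. WT replicate 2 was lowest and the groups did not overlap, with a change of 0.63 ± 0.22 (SE, adjusted p = 0.107), and 0.46 without WT replicate 2, where it was called higher. PSAE2 (AT2G20260, chromosome 2, 8736734 to 8737767, plus strand) had 5005, 5869.7 and 4334 normalized counts in WT replicates 1 to 3 and 5203 and 4923 in hdl replicates 1 and 2, with overlapping groups and a change of 0.01 ± 0.17 (SE, adjusted p = 0.975), below 0 with edgeR, with DESeq2 and at equal totals. Its partner copy PSAE1 was at 0.25 and at -0.07 at equal totals. The share of PSAE2 in their sum was 16.3%, 19.6% and 16.7% in WT replicates 1 to 3 and 14.9% and 15.4% in hdl replicates 1 and 2. PSAD1, PSAD2, PSAH1 and PSAL had changes of 0.50, 0.48, 0.47 and 0.49, and these, like PSAH2, were above all WT libraries in both hdl libraries and positive at equal totals. PSAG and PSAK, which flank the core, the lumenal subunit PSAN, and PSAO were between 0.17 and 0.34, and PSAK, PSAN and PSAO were below 0 at equal totals. PSAH2 and PSAE2 overlap a gene on the opposite strand.

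PSBO, PSBP and PSBQ shield the manganese cluster of photosystem II on the lumen side, and PSBR helps them to bind. PSBO1 (AT5G66570, chromosome 5, 26568572 to 26570461, plus strand) was the most abundant, with 86519, 88449.8 and 71221 normalized counts in WT replicates 1 to 3 and 111731 and 105599 in hdl replicates 1 and 2. Both hdl libraries were above all WT libraries, with a change of 0.41 ± 0.22 (SE, adjusted p = 0.248). PSBO2, its copy, had a change of 0.40, and PSBO1 held 75.5 to 75.8% of the PSBO sum in every library. Of the PSBQ copies, PSBQ1 had a change of 0.57 ± 0.19 (SE, adjusted p = 0.104) with no overlap, and PSBQ2 a change of -0.02 ± 0.20 (SE, adjusted p = 0.956) with overlapping groups. PSBQ2 had 16117, 19596 and 13289 normalized counts in WT replicates 1 to 3 and 15545 and 16299 in hdl replicates 1 and 2, and its change was 0.12 without WT replicate 2. PSBQ1 made up 53.1%, 39.3% and 52.9% of the PSBQ sum in WT replicates 1 to 3 and 59.4% and 57.7% in hdl replicates 1 and 2, so WT replicate 2 stood apart here as well. PSBR (AT1G79040, chromosome 1, 29735952 to 29737009, plus strand) had 24718, 23381 and 20339.5 normalized counts in WT replicates 1 to 3 and 36499 and 34238 in hdl replicates 1 and 2. The groups did not overlap, and the change was 0.64 ± 0.17 (SE, adjusted p = 0.0586). PSBP1 had a change of 0.33.

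PSBS senses the acidity of the lumen and switches on the dissipation of excess light as heat. PSBS (AT1G44575, chromosome 1, 16870221 to 16873427, plus strand) had 21441, 10338 and 18809 normalized counts in WT replicates 1 to 3 and 38242 and 36657 in hdl replicates 1 and 2. WT replicate 2 was lowest, and both hdl libraries were above all WT libraries. The log2 change was 1.22 ± 0.32 (SE, adjusted p = 0.0583), and 0.90 without WT replicate 2, where PSBS was called higher. Of the small membrane subunits, PSBY (AT1G67740, chromosome 1, 25394031 to 25395249, minus strand) was the most abundant, with 31778, 23809 and 23894 normalized counts in WT replicates 1 to 3 and 39589 and 38814 in hdl replicates 1 and 2 and a change of 0.58 ± 0.20 (SE, adjusted p = 0.106). PSBX had 18783, 15704 and 14959 normalized counts in WT replicates 1 to 3 and 25319 and 22716 in hdl replicates 1 and 2 and a change of 0.55 ± 0.17 (SE, adjusted p = 0.0859). PSBW had 24149, 26731 and 20564 normalized counts in WT replicates 1 to 3 and 30629 and 28217 in hdl replicates 1 and 2 and a change of 0.31 ± 0.18 (SE, adjusted p = 0.279), which was -0.01 at equal totals. For these 3 genes the groups did not overlap.

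Per kilobase of annotated transcript, LHCB1.3 led in WT at 158990.4 ± 24800.4 normalized counts (SD, n = 3), followed by LHCB1.5 at 126809 ± 35808 and LHCB1.1 at 78979.8 ± 6642. LHCB1.3 and LHCB1.5 differed by less than the SD of LHCB1.5. The next 3, LHCA4, LHCA1 and PSAF, lay between 57085 and 58942, closer together than their SD of 6629 to 12741. At the low end were LHCA5 at 1735 ± 169.8, LHCA6 at 1144 ± 519 and LHCB4.3 at 744 ± 225. From WT to hdl, LHCB1.4 went from rank 14 to rank 38 and LHCB1.2 from 12 to 22, while PSBS went from 35 to 25 and PSBR from 21 to 13. Without WT replicate 2, the WT mean of LHCB1.4 was 21102 rather than 38266 and its WT rank was 25. The 3 highest and LHCB4.3 as the lowest kept their ranks. These ranks are a description with no test.

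The spread within WT had 2 parts. All 42 genes were lower in WT replicate 3 than in WT replicate 1, at 0.752 to 0.877 times its level. WT replicate 2 instead differed by gene, from 0.386 times the mean of the other WT libraries for LHCA6 to 3.44 times for LHCB1.4, and was the highest WT library for 18 genes and the lowest for 9. The hdl libraries were closer, with ratios of replicate 1 to replicate 2 between 0.932 and 1.22. Of the 42 genes, 16 overlap a gene on the opposite strand, and the sources used here do not give whether counting used strand. They are LHCB1.3, LHCB1.5, LHCB2.3, LHCB3, LHCB4.2, LHCB6, LHCA4, LHCA5, PSAE1, PSAE2, PSAG, PSAH1, PSAH2, PSAN, PSBP1 and PSBR. Tested without all such genes, LHCB4.3 and PSBS were called higher among the 26 that stay, where 15.5% of the 14413 genes then tested were called, 10.1% higher. With the copies of the 8 multigene families summed, 0 sums were called, and their log2 changes lay between -0.10 for LHCB1 and 0.53 for PSAH.

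As a share of all normalized counts, the 42 genes made up 8.65%, 9.39% and 7.52% in WT replicates 1 to 3 and 7.81% and 7.79% in hdl replicates 1 and 2. The groups overlapped, with means of 8.52 ± 0.944% in WT (SD, n = 3) against 7.80 ± 0.0161% in hdl (SD, n = 2). The LHCII trimer genes alone made up 3.27%, 3.91% and 2.84% in WT replicates 1 to 3 and 2.56% and 2.68% in hdl replicates 1 and 2, below WT in both hdl libraries. In summed normalized counts the LHCII trimer genes overlapped between groups. The sum of the 42 genes in normalized counts was above WT in both hdl libraries, so both results depend on the scaling. LHCB1 made up most of the LHCII sum, at a WT mean of 533482 of 656777 normalized counts. LHCB2 instead summed to 60161, 58283 and 49838 in WT replicates 1 to 3 and 76972 and 76376 in hdl replicates 1 and 2. Without LHCB1, the share of the other 37 genes overlapped between groups. It was 6.03%, 6.13% and 5.25% in WT replicates 1 to 3 and 5.87% and 5.72% in hdl replicates 1 and 2.

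**Figure D4:**
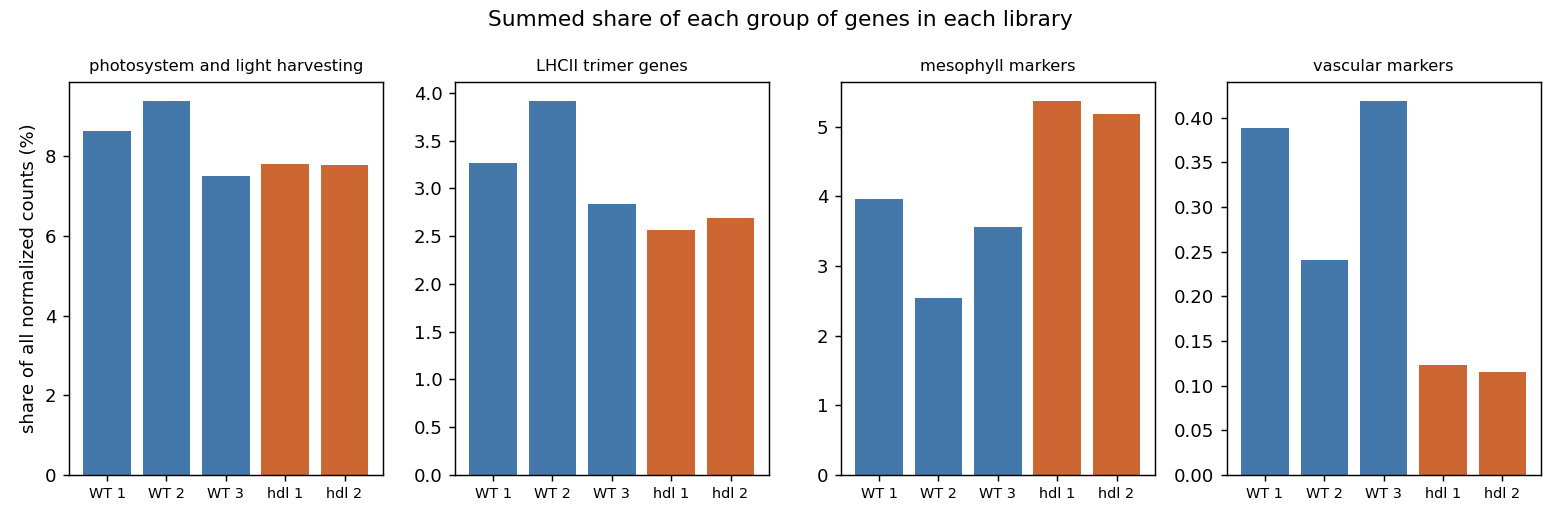
Summed share of 4 groups of genes in all normalized counts, in percent, as 1 bar per library from a zero baseline. The photosystem and light-harvesting genes overlap between groups at 7.52 to 9.39% in WT and 7.79 and 7.81% in hdl, the summed mesophyll markers are higher in hdl, and the sum of the vascular markers, which SEOR1 and XCP2 dominate, is lower.

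Genes that work with the photosystems were read from the same fit, by lists that do not share members with the 42, and their changes are on the log2 scale. Over all tested genes, for comparison, 8.21% were called higher and 4.5% lower, and 26.7% had both hdl libraries above all WT libraries. Without WT replicate 2, 17.8% of all genes were called higher, the share to set beside the list counts without that library. Of 14 genes of electron transport, 4 (28.6%) were called higher and 0 lower, with a median log2 change of 0.71 (0.39 at equal totals). PGR5 and PGRL1A, which serve cyclic electron flow around photosystem I, rose by 1.20 (adjusted p = 0.0122) and 0.84 (adjusted p = 0.0184). FD1, a leaf ferredoxin, had 7055, 2201 and 5917 normalized counts in WT replicates 1 to 3 and 18711 and 18442 in hdl replicates 1 and 2 and rose by 2.04 ± 0.48 (SE, adjusted p = 0.0442). WT replicate 2 was far below the other WT libraries, and without it the change of FD1 was 1.52. ATPC1, the gamma subunit of the chloroplast ATP synthase, rose by 0.89 (adjusted p = 0.0355). Scaled to equal totals, 2 of the 14 were called higher. The higher calls numbered 3, 12 and 0 without WT replicates 1, 2 and 3 in turn, and 0 and 0 without hdl replicates 1 and 2.

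Of 10 genes of antenna regulation and photoprotection, 6 were called higher and 0 lower, with a median of 0.85 (0.52 at equal totals). The early light-induced proteins ELIP1 and ELIP2, which are LHC relatives made under light stress, rose by 1.34 (adjusted p = 0.00961) and 3.84 (adjusted p = 0.0325). ELIP2 had 453, 74.3 and 499 normalized counts in WT replicates 1 to 3 and 3825 and 3544 in hdl replicates 1 and 2, and WT replicate 2 was far below the other WT libraries. Without it, the change of ELIP2 was 2.95. The kinase STN7, which phosphorylates LHCII, rose by 0.93 (adjusted p = 0.0167). LHCB7, a rare LHC protein, rose by 1.07 (adjusted p = 0.0274), and the one-helix proteins OHP1 and OHP2 by 1.07 (adjusted p = 0.0127) and 0.77 (adjusted p = 0.0264), although both overlap a gene on the opposite strand. At equal totals 1 gene of this list was called lower. The number called higher was 3, 9 and 1 without WT replicates 1, 2 and 3 in turn, and 0 and 1 without hdl replicates 1 and 2.

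Of 13 genes for targeting, assembly and repair of thylakoid proteins, 4 were called higher and 0 lower, with a median of 0.55 (0.22 at equal totals). HCF136, a photosystem II assembly factor, rose by 0.74 (adjusted p = 0.0259), and Y3IP1, a photosystem I assembly factor, by 1.12 (adjusted p = 0.0145). The protease subunits FTSH2 and FTSH5, which degrade damaged photosystem II protein D1, rose by 0.90 (adjusted p = 0.0174) and 1.31 (adjusted p = 0.00809), and both overlap a gene on the opposite strand. Calls in this list were 3, 9 and 1 without WT replicates 1, 2 and 3 in turn, and 0 and 1 without hdl replicates 1 and 2.

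Of 13 transcription regulators, 6 were called higher and 0 lower, and all 13 had both hdl libraries above all WT libraries (26.7% of all genes), with a median of 1.27 (0.95 at equal totals). GLK1, an activator of nuclear photosynthesis genes, had 399.9, 397 and 429 normalized counts in WT replicates 1 to 3 and 1214 and 992 in hdl replicates 1 and 2 and rose by 1.42 ± 0.16 (SE, adjusted p = 0.00752). Its relative GLK2 had 662, 1104 and 575 normalized counts in WT replicates 1 to 3 and 1555 and 1647 in hdl replicates 1 and 2, with a change of 1.09 ± 0.29 (SE, adjusted p = 0.0563). The light-response factor HY5 had 268, 139.6 and 192 normalized counts in WT replicates 1 to 3 and 424 and 379 in hdl replicates 1 and 2, with a change of 1.05 ± 0.31 (SE, adjusted p = 0.0739). Neither of these last genes was called. SIG5, a sigma factor of the plastid RNA polymerase that light induces, had 576, 363 and 451 normalized counts in WT replicates 1 to 3 and 3992 and 4035 in hdl replicates 1 and 2 and rose by 3.14 ± 0.21 (SE, adjusted p = 0.00343). SIG1, SIG2, SIG3 and SIG6 rose by 1.43 (adjusted p = 0.0228), 0.74 (adjusted p = 0.0478), 1.27 (adjusted p = 0.0361) and 0.96 (adjusted p = 0.0117). Of these regulators, the number called was 4, 13 and 2 without WT replicates 1, 2 and 3 in turn, and 0 and 2 without hdl replicates 1 and 2. Genes encoded in the chloroplast were not analysed here.

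**Figure D5:**
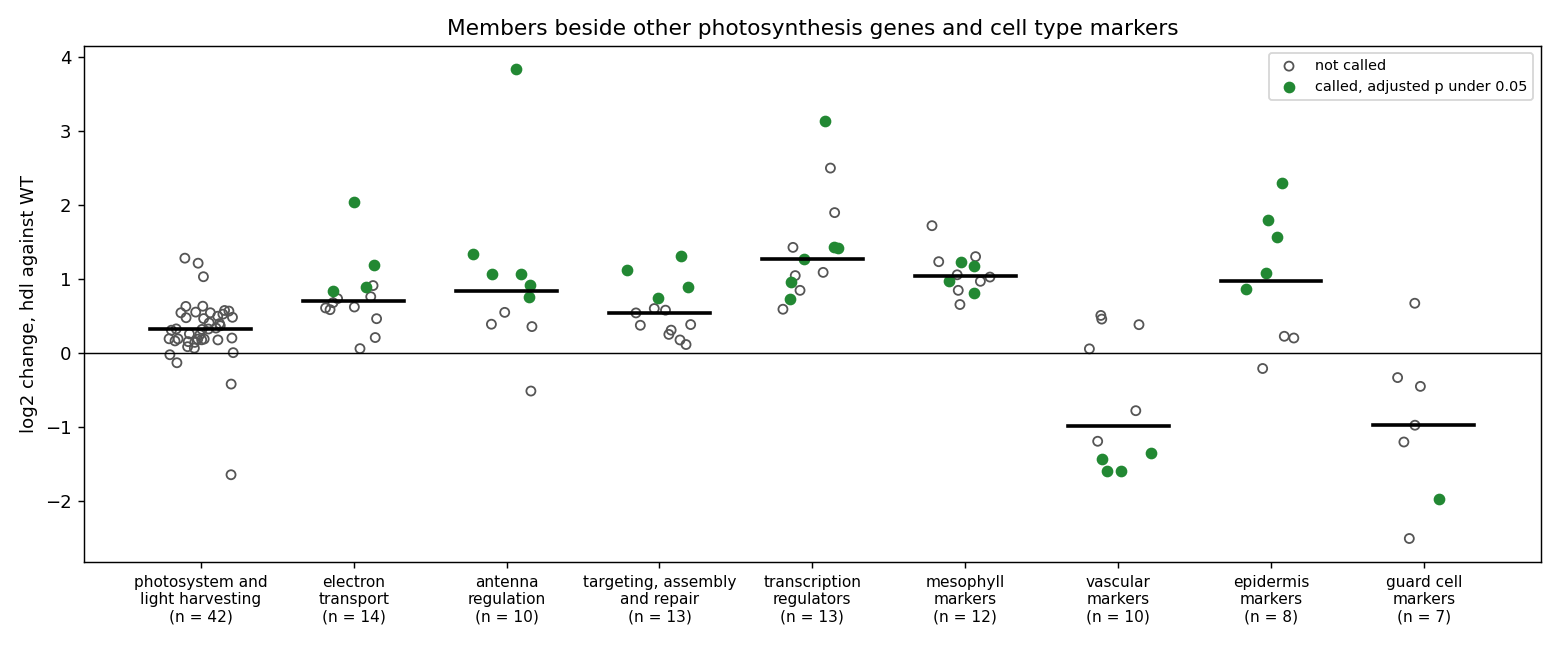
Log2 change in hdl against WT of each gene in the pathway and marker lists and of the 42 photosystem and light-harvesting genes, with called genes filled and a bar at each median. The 42 genes centre on a median of 0.33 with no filled point, and the transcription regulators on 1.27 with 6.

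Markers of cell types differed between the groups too, but not in 1 direction. The median log2 change was 1.05 for mesophyll, 0.98 for epidermis, -0.98 for vascular and -0.97 for guard cell markers. Their part in the results was not tested. Of 12 mesophyll markers, 4 were called higher and 0 lower, where 8.21% of all genes were called higher. All 12 are genes of photosynthetic carbon metabolism. Since epidermal cells hold chloroplasts too, they do not mark mesophyll alone. None of the 12 was at 0 in any library, and all had both hdl libraries above all WT libraries, as did 26.7% of all genes. RBCS2B, the small subunit of Rubisco, rose by 0.98 (adjusted p = 0.0342), GAPA1 by 1.18 (adjusted p = 0.0125), PRK by 1.23 (adjusted p = 0.0102) and CFBP1 by 0.81 (adjusted p = 0.0456), and the last pair overlap a gene on the opposite strand. The markers called higher were 2, 12 and 0 without WT replicates 1, 2 and 3 in turn, and 0 and 0 without hdl replicates 1 and 2. Of all genes, 17.8% were called higher without WT replicate 2. The mesophyll markers summed to 3.96%, 2.54% and 3.55% in WT replicates 1 to 3 and 5.37% and 5.18% in hdl replicates 1 and 2. The ratio of the 42 genes to these markers was 2.18, 3.69 and 2.12 in WT replicates 1 to 3 and 1.46 and 1.50 in hdl replicates 1 and 2, below WT in both hdl libraries. This ratio compares photosynthesis genes with each other and is not a level per mesophyll cell.

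The 10 vascular markers were split: 6 had negative and 4 positive log2 changes, and hdl lay below WT for 5, above WT for SULTR2;2 and SWEET11, and overlapped for 3. None was called higher and 4 were called lower, where 4.5% of all genes were called lower: SEOR1 at -1.59 (adjusted p = 0.00986), XCP2 at -1.59 (adjusted p = 0.0259), APL at -1.35 (adjusted p = 0.00752) and ATHB15 at -1.42 (adjusted p = 0.00752). The change was 0.51 for SULTR2;2, 0.46 for SWEET11, 0.39 for SUC2 and 0.06 for SWEET12, genes of sulfate and sugar transport named here after their values were seen. None of the 10 was at 0 in any library, and SEOR1 and XCP2 made up 42.3% and 34.9% of their summed WT mean. They summed to 0.389%, 0.241% and 0.419% in WT replicates 1 to 3 and 0.123% and 0.115% in hdl replicates 1 and 2. Of 8 epidermis markers 5 were called higher, where 8.21% of all genes were, and 0 lower: PDF2 at 0.87 (adjusted p = 0.0202), FDH at 1.08 (adjusted p = 0.0109), LTP1 at 2.30 (adjusted p = 0.00779), CER6 at 1.80 (adjusted p = 0.00712) and CER5 at 1.58 (adjusted p = 0.00887). PDF1 was at -0.21 and ACR4 at 0.21, and neither was called. The 8 markers summed to 0.128%, 0.139% and 0.125% in WT replicates 1 to 3 and 0.301% and 0.272% in hdl replicates 1 and 2, with none at 0. ATML1, whose promoter drives the reporter and which was named after its values were seen, had 2549, 4183 and 2582 normalized counts in WT replicates 1 to 3 and 3562 and 3522 in hdl replicates 1 and 2 and a change of 0.23 ± 0.24 (SE, adjusted p = 0.540). Of 7 guard cell markers 0 were called higher and 1 lower, FAMA at -1.98 (adjusted p = 0.0206). Log2 changes were negative for 6 and positive for MYB60, at 0.68, where both hdl libraries were above all WT libraries. The 7 markers summed to 0.00488%, 0.00564% and 0.00598% in WT replicates 1 to 3 and 0.00230% and 0.00317% in hdl replicates 1 and 2, with none at 0. Without WT replicate 2, 17.8% of all genes were called higher and 11.4% lower. Lower vascular calls numbered 3, 6 and 3 without WT replicates 1, 2 and 3 in turn, and 0 and 2 without hdl replicates 1 and 2. Higher epidermis calls numbered 4, 6 and 3 without WT replicates 1, 2 and 3 in turn, and 0 and 4 without hdl replicates 1 and 2, and lower guard cell calls 1, 2 and 0 without WT replicates 1, 2 and 3 in turn, and 0 and 2 without hdl replicates 1 and 2.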

How the data were processed

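RNA-seq was analysed in 5 libraries, treated as 1 batch, since their titles and library names do not name a batch. Per the submitters' processing notes, the build was TAIR10 and DESeq2, deepTools, SAMtools 1.16.1, Bowtie2 2.5.0, Trimmomatic 0.33 and FastQC 0.11.9 were used. How reads were counted is not given in the sources used here. Per gene, the deposited file holds a signal that its name calls normalized by DESeq2 (normalized counts here). A table of raw counts was also deposited and was not used here, since it holds none of the 42 genes.

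The normalized counts were tested with limma 3.58.1 (R 4.3.3, trend) on log2(value + 1), for genes that reached 10 normalized counts in 2 or more libraries. A gene was called at a Benjamini-Hochberg adjusted p under 0.05 over all 20391 genes. Fold changes on this scale understate those of low genes. All values (100%) were whole multiples of 1 step per library within 0.01, so reads were recovered (15418154 to 22838239) and tested with edgeR 4.0.16 and DESeq2 1.42.0 as alternatives. The deposited scaling factors were 0.871 times the recomputed ones in all libraries, the ratio that arises if 1 of the 5 held 2 counts per step. The recovered reads of 1 library, the depth range and the edgeR and DESeq2 calls may thus rest on counts too low by a factor of 2. Normalized values do not depend on it.

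Other alternatives changed the scaling, filter, pseudocount, threshold, libraries and block. Sequences, coordinates and identities come from RefSeq TAIR10.1 and Biopython 1.88. In full are named, per role, the most abundant gene and those with the smallest p and the largest and smallest change, and up to 6 called genes per list. The design foresaw protein identity, and coding sequence was used instead. The 42 genes and the lists were chosen with earlier results of these data known. The fits were also run on simulated reads with the same spread setting for all genes and no library standing apart, unlike these data. No result here rests on that run.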

Additional observations from a re-analysis of the deposited data

How the results depend on the processing

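By limma the 42 genes gave 0 calls. There were 1 higher with edgeR, 12 with DESeq2, 8 at an adjusted p under 0.10, 2 with a pseudocount of 10, 2 without genes overlapping the opposite strand and 1 with a filter at 50, and 1 lower at equal totals. With the copies of 8 families summed, the 29 features gave 0 calls, and in the same order 1, 10, 5, 1, 1 and 1 higher. All genes gave 2619 higher and 2152 lower with DESeq2, 2623 and 2035 at 0.10, and 993 and 2554 at equal totals. For electron transport 11, 9 and 2 were higher with these 3 settings. Of the regulators 11 were higher with DESeq2 and 12 at 0.10, of the targeting list 7 at 0.10 and 2 without opposite-strand genes, and at equal totals 1 antenna gene was lower. Mesophyll markers gave 11 with DESeq2, 9 with edgeR and at 0.10, 8 with the filter at 50, and 2 with no filter and at equal totals.

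Leaving out 1 library gave 0 to 3574 genes higher and 0 to 2295 lower, and 0 to 19 and 0 to 2 of the 42. The ranges were 0 to 12 for electron transport, 0 to 9 higher and 0 to 1 lower for the antenna list, 0 to 9 for targeting, 0 to 13 for regulators, 0 to 12 for mesophyll, 0 to 6 lower for vascular, 0 to 6 for epidermis, 0 to 2 lower for guard cell and 0 to 14 for the 29 features. Counts were 0 without hdl replicate 1, a fit that takes the spread of the remaining hdl library from WT.

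The replicate block gave 0 calls in all genes and in every list. That fit spends most of the 5 samples on its own terms and leaves little to estimate the spread. Its 0 calls therefore say nothing on the genes or on pairing. Whether samples of the same number were paired is not known. Deviations of libraries from their group means correlated at -0.0238 to 0.0238 between WT and hdl. With 2 hdl libraries, the deviations of 1 mirror those of the other, so these values cannot exclude a pairing. Log2 changes with the block were those without WT replicate 3, and turned in sign for LHCB1.5 (-0.0298), LHCA1 (-0.0447), LHCA4 (-0.0713) and PSAE2 (-0.0988).

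Leaving out 1 library also turned signs, with changes of -0.0298 to 0.370 for LHCB1.5, -0.0447 to 0.236 for LHCA1, -0.0713 to 0.233 for LHCA4, -0.0988 to 0.120 for PSAE2, -0.159 to 0.121 for PSBQ2 and -0.245 to 0.0432 for the LHCB1 family sum.

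Signs turned at equal totals for LHCB1.1 (-0.141), LHCB1.5 (-0.165), LHCB2.3 (-0.176), LHCB3 (-0.130), LHCB4.1 (-0.127), LHCB4.2 (-0.142), LHCB5 (-0.0608), LHCA1 (-0.234), LHCA2 (-0.132), LHCA4 (-0.253), PSAE1 (-0.0714), PSAE2 (-0.314), PSAF (-0.117), PSAK (-0.129), PSAN (-0.00053), PSAO (-0.156), PSBW (-0.0110), the sums of LHCB4 (-0.122), PSAE (-0.112) and PSBQ (-0.0388), and ATML1 (-0.0930). PSAE2 was -0.00237 with DESeq2 and -0.0132 with edgeR. Beyond the fewer samples or genes of a setting, the cause was not tested. Each of the 42 genes had at least 644 normalized counts in every library, and each SE rests on 5 samples.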
